A study of Mus musculus with 6 samples.

Results

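The genes described are 35 transcripts that hepatocytes, the parenchymal cells of the liver, make for the blood and for liver metabolism, measured in cultures labelled as hepatic stellate cells. They were taken by gene symbol from a table of 55401 mouse genes, and all 35 were found once. Of the mice, 1 genotype was WT and the other was heterozygous for S100a16 (S100a16+/-, titled S100KD), a gene of the S100 calcium-binding family, and all mice were C57BL/6J. Cells of both genotypes spent 7 days in medium with FBS, serum that activates stellate cells. There were 3 poly(A)-selected RNA libraries for either genotype. Nothing in the labels ties the libraries to separate animals, so p-values measure the spread between these libraries, which may be technical; the labels give neither age nor sex.

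Hepatocytes secrete most plasma proteins, among them albumin, the fibrinogen chains, the apolipoproteins and many protease inhibitors. They also hold the enzymes of the urea cycle, gluconeogenesis and drug oxidation. A set of liver-enriched transcription factors, HNF4A and C/EBP alpha among them, keeps these genes active, and isolated hepatocytes lose much of this programme in culture. Stellate cells lie beside the hepatocytes in the space of Disse and store retinoids, and preparations of them can carry other liver cells. In bulk RNA, fewer hepatocytes and less hepatocyte RNA per cell cannot be told apart.

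Library totals ran from 61979103 to 76291481 counts. S100a16 was lower in each S100a16+/- library (FPKM, which scales counts for transcript length and library size, of 18.0, 17.7 and 30.0) than in each WT library (57.7, 58.8 and 56.8). The log2 difference was -1.35, at an edgeR adjusted p of 0.0313 that ranged from 4.04e-05 to 0.146 when 1 library was left out. S100a16+/- replicate 3 differed most from the rest. It correlated with S100a16+/- replicates 1 and 2 at Pearson r of 0.930 and 0.929 across genes, against 0.987 between those 2 libraries, and it alone expressed Xist, the X-inactivation transcript (FPKM of 32.2, at most 0.0323 elsewhere). The Y-linked gene Ddx3y had an FPKM of 0.0102 there and of 12.1 to 15.8 in the other 5 libraries, so this library was of the other sex. Most markers of the labelled cell type were expressed, but not all. Of 22 stellate cell markers, 15 were high enough to be tested. The 22 summed to an FPKM of 219 in S100a16+/- replicate 3 and of 1078 to 1300 in the other libraries. The smooth-muscle actin gene Acta2 ranged from 48.0 in S100a16+/- replicate 3 to 489. Among the untested markers, the retinoid enzyme gene Lrat had an FPKM of at most 0.0517 in any library. The astrocyte-type filament gene Gfap had at most 0.0353. Lrat and Gfap were picked after their values were seen, so they do not describe the list. Macrophage transcripts were abundant everywhere, with the lysozyme gene Lyz2 at FPKM from 4377 to 10057. Results that rest on S100a16+/- replicate 3 are therefore given with and without it.

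The hepatocyte transcripts were far higher in S100a16+/- replicate 3 than in any other library, intermediate in the 3 WT libraries and lowest in S100a16+/- replicates 1 and 2. Summed over the 35 genes, the FPKM came to 226, 226 and 1170 for S100a16+/- replicates 1 to 3, against 373, 355 and 310 for WT. The transferrin gene Trf and the urea-cycle gene Ass1, which did not follow the rest, made up most of the sum where it was low. Without those 2 genes, a choice made after their values were seen, the sums were 37.2, 36.4 and 1006 in S100a16+/- and 184, 159 and 121 in WT. As a percent of the WT mean, S100a16+/- replicates 1 to 3 then came to 24.1%, 23.5% and 649.6%. Without the 6 members that other cells also express (Trf, Rbp4, Hp, Ass1, Fabp1 and Apob), the sums were 19.2, 17.5 and 872 against 166, 147 and 110. The S100a16+/- mean thus lay above the WT mean only because of 1 library, and the groups overlapped.

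**Figure D1:**
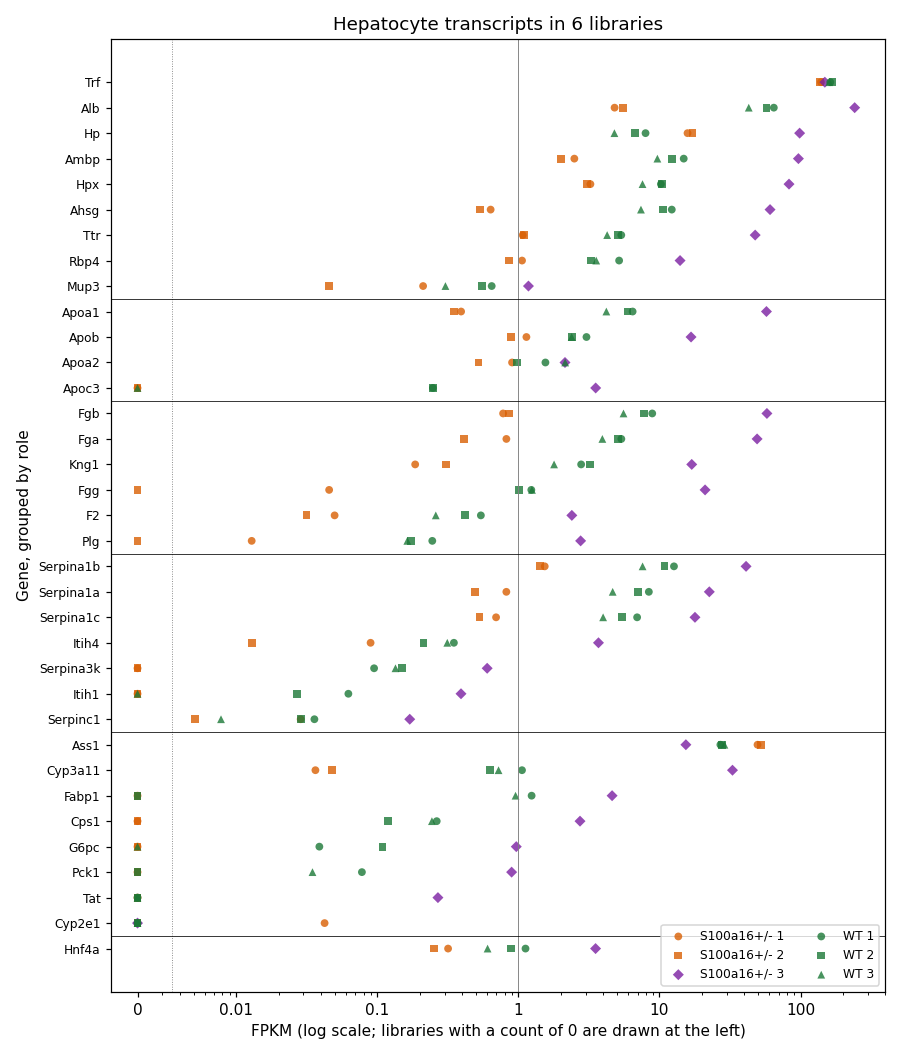
FPKM (log axis) of each of the 35 genes in the 6 libraries, 1 point per library, grouped by role and ordered by mean level, with counts of 0 drawn at the left, where points cover each other. The purple diamonds (S100a16+/- replicate 3) lie to the right of the other points in most rows, and Trf and Ass1 depart from this pattern.

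Of the 35 genes, 23 had the order of libraries seen for Alb, with S100a16+/- replicate 3 above every WT library and S100a16+/- replicates 1 and 2 below every WT library. That order was found in 10.8% of the 12766 genes tested (FPKM of at least 1 in at least 3 libraries), a set that holds 19 of the 35, of which 15 had it. The order of Alb was known before the genes were counted, so the count describes how far the other genes shared it. Ass1 alone had the opposite order, which 6.77% of the tested genes had. Of the remaining 11 genes, Apoc3, Itih1, Pck1, G6pc and Fabp1 had their highest level in S100a16+/- replicate 3 and were listed at 0 in 3 libraries each, 1 of them WT. Tat had counts in S100a16+/- replicate 3 alone, and Serpinc1 was highest there too, but S100a16+/- replicate 1 lay among the WT libraries for it. Hp, Trf, Apoa2 and Cyp2e1 are described with their groups. The median gene of the 33 with any WT level stood at 12.3%, 9.04% and 705% of its WT mean in S100a16+/- replicates 1 to 3. For the 19 tested genes alone the median was 17.1%, 13.6% and 641%. It was 96.1%, 95.5% and 97.8% over all tested genes with any WT level.

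Alb encodes serum albumin, the most abundant plasma protein (ENSMUSG00000029368, chr5:90460897-90476602, plus strand). Alb had an FPKM of 4.81, 5.52 and 242 under S100a16+/- and of 64.6, 57.4 and 42.9 under WT, from 886, 1005 and 38838 counts and from 11078, 11395 and 8115 counts. Replicate 3 was thus 50.3-fold above replicate 1 and 43.8-fold above replicate 2 of the same genotype. Among all genes of a library, Alb ranked 121st by FPKM in S100a16+/- replicate 3, between 624th and 1059th in WT, and 7386th and 6797th in S100a16+/- replicates 1 and 2. The group means were 84.1 ± 137 and 55.0 ± 11.05 FPKM (SD, n = 3 each), and the difference did not pass the test (log2 change 0.64, SE 1.46, edgeR adjusted p = 0.841). Without S100a16+/- replicate 3 the log2 change was -3.35 (SE 0.21, edgeR adjusted p = 0.000279).

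None of the 19 genes tested was called over all 6 libraries (edgeR quasi-likelihood with Benjamini-Hochberg adjustment over all genes tested), where 4.46% of all tested genes were (2.85% higher, 1.61% lower). With no FPKM minimum none of the 35 was called either, where 0.858% of 28336 genes were (0.572% higher, 0.286% lower). At an unadjusted p under 0.05 there was 1, Hp. Their log2 changes (S100a16+/- over WT) were above 0 for 17 and below 0 for 2, with a median of 1.19 against 0.00 over all tested genes. On log2(FPKM + 1) in limma, which gives the single high library less weight, 6 were above 0 and 13 below. The direction over all 6 libraries therefore depended on the scale. A DESeq2 fit gave an adjusted p for 12 of the 35 genes and called 1, Hp, where 8.9% of the genes it tested were called (5.55% higher, 3.36% lower).

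Without S100a16+/- replicate 3, 16 of 18 tested genes were lower and 2 were higher, where 32.3% of all tested genes were called (16.5% lower, 15.8% higher). The 16 fell in a set that reached the FPKM minimum mostly through the WT libraries, where they were high, so this share does not describe all 35. Ahsg, Apoa1, Fga, Fgb, Fgg, Kng1, Serpina1a and Serpina1c were under the minimum in both remaining S100a16+/- libraries. Their calls in this fit are therefore not independent of the filter, and each was also called lower with no minimum. With no minimum, a setting added after the data were seen, 34 genes had a count, and 22 were lower and 2 higher, where 13.9% of 27770 genes were called (7.35% lower, 6.51% higher). The median log2 change was then -3.10, against -0.04 over all genes of that fit. These fits set 2 libraries of 1 genotype against 3, and the 2 were not said to be separate animals. Endothelial markers moved with these genes: 15 of 22 tested were lower and 3 higher without S100a16+/- replicate 3. Their part in the result was not tested.

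**Figure D2:**
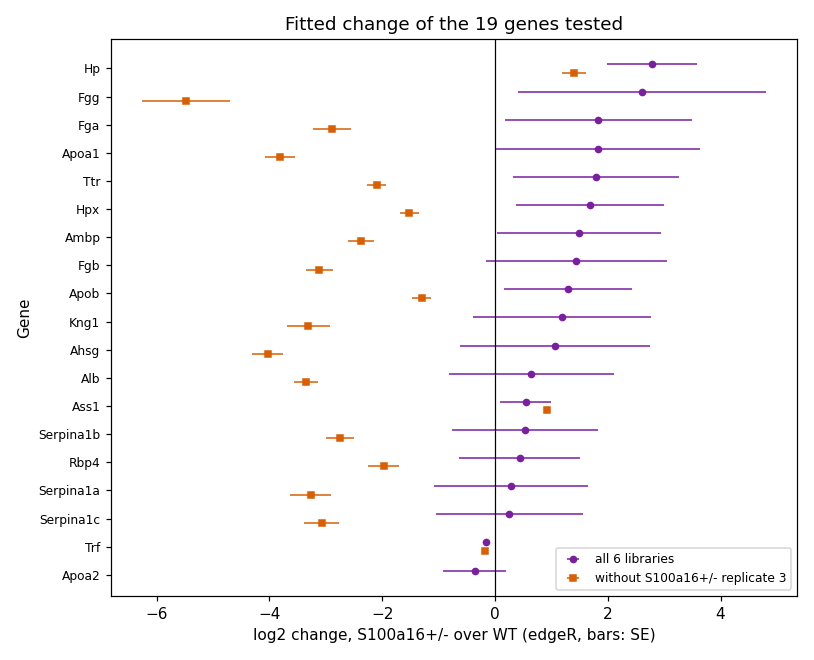
Log2 change of S100a16+/- over WT (horizontal axis, bars are the SE of the edgeR fit) for the 19 genes tested, with all 6 libraries (purple circles) and without S100a16+/- replicate 3 (orange squares; Apoa2 was not tested there). With 6 libraries 17 changes lie above 0 with wide bars, and without that library 16 of 18 lie below 0.

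The other plasma carrier proteins mostly followed Alb. Ambp, which encodes the precursor of alpha-1-microglobulin and bikunin, had an FPKM of 2.49, 2.02 and 96.6 in S100a16+/- and 14.9, 12.3 and 9.67 in WT. Hpx, the heme scavenger hemopexin, had 3.24, 3.06 and 82.8 against 10.2, 10.5 and 7.58. Both were thus highest in S100a16+/- replicate 3 and lowest in replicates 1 and 2. Ahsg, which encodes fetuin-A, showed the same pattern with a wider range, at 0.636, 0.532 and 60.8 against 12.2, 10.7 and 7.395, and was 95.5-fold and 114-fold higher in S100a16+/- replicate 3 than in replicates 1 and 2. Ttr, the transthyretin gene that carries thyroid hormone and the retinol carrier, and Rbp4, that retinol carrier, had FPKM of 1.07, 1.10 and 47.7 against 5.36, 5.07 and 4.26, and of 1.06, 0.861 and 14.0 against 5.18, 3.25 and 3.56. Both were lower without S100a16+/- replicate 3 (log2 -2.10 and -1.97, with edgeR adjusted p of 0.000696 and 0.00428). Ambp (-2.38), Hpx (-1.52) and Ahsg (-4.03) were lower too, with edgeR adjusted p of 0.00118, 0.00227 and 0.000387. The major urinary protein gene Mup3 stayed under the FPKM minimum in all but 1 library (1.18 in S100a16+/- replicate 3), and reads may be shared among the near-identical Mup genes.

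Hp and Trf departed from the carrier group. Hp encodes haptoglobin, which binds free hemoglobin and is an acute-phase protein (chr8:109575128-109579172, minus strand). Its FPKM was 15.8, 17.1 and 98.5 in S100a16+/- and 7.97, 6.74 and 4.80 in WT, so every S100a16+/- library lay above every WT library. The means were 43.8 ± 47.4 and 6.50 ± 1.60 FPKM (SD, n = 3 each). In edgeR the difference was not called (log2 change 2.79, SE 0.80, adjusted p = 0.119), and in DESeq2 it was (2.80, adjusted p = 0.0170). Without S100a16+/- replicate 3 it was 1.40 (SE 0.21, edgeR adjusted p = 0.00585). Over its alternatives the adjusted p ran from 0.00585 to 0.343. Of 22 acute-phase genes, 11 were tested, Hp among them, and 1 rose over all 6 libraries, where 2.85% of all tested genes were called higher. With S100a16+/- replicate 3 left out, 2 of the 11 were higher and 6 lower, where 15.8% and 16.5% of all tested genes were. The 2 higher are thus near the share over all tested genes. The gene that rose was Saa3, a serum amyloid A gene that macrophages also express, at an FPKM of 49.1, 46.8 and 43.9 against 19.1, 17.3 and 20.4 (log2 change 1.35, SE 0.09, edgeR adjusted p = 0.00399). That call held with each of the 6 libraries left out. Its level in S100a16+/- replicate 3 was thus no higher than in replicates 1 and 2, unlike that of Hp. Lcn2, which encodes the iron-siderophore binder lipocalin-2, had 1.24, 1.39 and 14.0 against 1.43, 0.729 and 0.521 and did not pass the test (log2 change 2.65, edgeR adjusted p = 0.229, and 0.61 and 0.335 without S100a16+/- replicate 3).

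Trf was the most abundant of the 35 transcripts on average, and its range over the libraries was narrow. Its FPKM was 140, 138 and 149 in S100a16+/- and 162, 169 and 160 in WT, so the groups did not overlap, but the difference was not called (log2 -0.15, edgeR adjusted p = 0.243). It was -0.17 without S100a16+/- replicate 3 (edgeR adjusted p = 0.0204). Trf and Hp were the only 2 of the 35 genes with non-overlapping groups (31.4% of all tested genes had them). Relative to Alb in the same library, Trf stood at 2903%, 2495% and 61.5% in S100a16+/- and 251%, 294% and 372% in WT. Hp stood at 329%, 311% and 40.7% against 12.3%, 11.8% and 11.2%. Which cells made Trf and Hp was not tested.

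Among apolipoproteins, Apoa1, the main protein of high-density lipoprotein, had the widest range among those with counts in every library. Its FPKM was 0.393, 0.348 and 57.3 in S100a16+/- and 6.45, 5.94 and 4.20 in WT, from 39, 34 and 4859 counts and from 584, 624 and 421 counts. S100a16+/- replicate 3 exceeded the WT mean 10.4-fold, and the other S100a16+/- libraries reached 7.10% and 6.30% of it. Apob, the structural protein of very-low-density lipoprotein, had a narrower range, from 1.14, 0.891 and 16.7 to 3.04, 2.41 and 2.39. Apoa1 and Apob were both lower without S100a16+/- replicate 3 (log2 -3.81 and -1.30, with edgeR adjusted p of 0.000419 and 0.00309). Apoa2, the second protein of high-density lipoprotein, had 0.902, 0.522 and 2.14 against 1.56, 0.975 and 2.15, so WT replicate 3 was as high as S100a16+/- replicate 3. Its log2 change was -0.36 (SE 0.56, edgeR adjusted p = 0.759). Apoc3, an inhibitor of lipoprotein lipase, had 247 counts in S100a16+/- replicate 3 and at most 22 elsewhere.

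The fibrinogen chains shared 1 pattern. Fgg, Fga and Fgb, whose products form the clot protein fibrinogen, lie within 42140 bases of chromosome 3. Fgb had an FPKM of 0.780, 0.854 and 57.8 in S100a16+/- and 8.89, 7.76 and 5.56 in WT, and Fga had 0.823, 0.414 and 49.2 against 5.37, 5.09 and 3.94. Fgg was lower than both in every library and was listed at 0 in S100a16+/- replicate 2, with 8 counts in replicate 1, 3022 in replicate 3 and 190, 180 and 212 in WT. In all 3, S100a16+/- replicate 3 exceeded the WT mean, by 10.3-fold for Fga, 7.80-fold for Fgb and 18.1-fold for Fgg. Without that library Fga, Fgb and Fgg were lower (log2 -2.89, -3.11 and -5.48, with edgeR adjusted p of 0.00230, 0.000542 and 0.00461). All 3 then reached the FPKM minimum only through the WT libraries, so these calls are not independent of that filter. With no minimum they were lower too (edgeR adjusted p of 0.00340, 0.000697 and 0.0105). Kng1, the kininogen gene that supplies bradykinin, had 0.186, 0.307 and 16.9 against 2.79, 3.20 and 1.79, and was lower without S100a16+/- replicate 3 (log2 -3.31, edgeR adjusted p = 0.00214). F2 and Plg, which encode prothrombin and plasminogen, stayed under an FPKM of 1 in every library but S100a16+/- replicate 3, where they reached 2.39 and 2.76.

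The alpha-1-antitrypsin genes Serpina1a, Serpina1b and Serpina1c, which encode inhibitors of neutrophil elastase, lie side by side on chromosome 12 and are near-identical copies, so their counts may be split between them and are uncertain. Serpina1b was the highest, at an FPKM of 1.54, 1.42 and 41.1 in S100a16+/- and 12.7, 10.9 and 7.59 in WT. S100a16+/- replicate 3 exceeded the WT mean by 3.37-fold, 3.96-fold and 3.28-fold for the 3 copies, less than for the fibrinogen chains or Apoa1. All 3 were lower without S100a16+/- replicate 3 (log2 -3.27, -2.75 and -3.07, with edgeR adjusted p of 0.00207, 0.000989 and 0.00145). The other inhibitors were scarce. Itih4, a chain of the inter-alpha-trypsin inhibitor family, reached 3.70 in S100a16+/- replicate 3 and at most 0.349 elsewhere, and Itih1 and Serpina3k stayed under 1 everywhere. Serpinc1, the antithrombin gene, had at most 102 counts. Serpina3k overlaps Serpina3m on the same strand, which had 74.0% as many counts over the libraries, so its value is uncertain too.

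The metabolic enzymes fell into 3 kinds. Cyp3a11, a drug-oxidising cytochrome P450, showed the widest contrast among genes with counts in every library, at an FPKM of 0.0365, 0.0475 and 32.9 in S100a16+/- and 1.06, 0.628 and 0.724 in WT. S100a16+/- replicate 3 stood 40.9-fold above the WT mean. Cps1, the first enzyme of the urea cycle, had 1042 counts there, none in S100a16+/- replicates 1 and 2, and 108, 56 and 110 in WT. The gluconeogenesis genes Pck1 and G6pc, the tyrosine-degrading Tat and the fatty acid carrier Fabp1 were listed at 0 in S100a16+/- replicates 1 and 2 and had 212, 160, 45 and 176 counts in replicate 3. Cyp2e1, the ethanol-oxidising P450 of hepatocytes around the central vein, had 8 counts in S100a16+/- replicate 1 and 0 in the other 5 libraries, the library rich in Alb included.

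Ass1, which encodes the urea-cycle enzyme argininosuccinate synthase and is also made by macrophages, ran the other way. Its FPKM was 49.5, 52.1 and 15.4 in S100a16+/- and 27.0, 27.8 and 28.9 in WT. S100a16+/- replicate 3 was thus the lowest library (55.1% of the WT mean) and replicates 1 and 2 were the highest (178% and 187%). Its log2 change was 0.54 (SE 0.45, edgeR adjusted p = 0.545), and 0.93 without S100a16+/- replicate 3 (SE 0.05, edgeR adjusted p = 0.000173). The summed FPKM of 25 macrophage markers, which the most abundant of them dominate, was 18755, 20049 and 14695 in S100a16+/- against 11646 to 12277 in WT. Of the 25, 5 were called higher and 0 lower over all 6 libraries, where 2.85% and 1.61% of all tested genes were. Without S100a16+/- replicate 3, 13 were higher and 9 lower, where 15.8% and 16.5% of all tested genes were. Leaving out any library other than S100a16+/- replicate 3 ended each of the 5 calls (edgeR adjusted p up to 0.235). Their part in the level of Ass1 was not tested.

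Hnf4a encodes the nuclear receptor that activates many of the genes above. Its FPKM was 0.318, 0.251 and 3.53 in S100a16+/- and 1.12, 0.883 and 0.605 in WT, the order of Alb. It missed the FPKM minimum in 4 of 6 libraries. With no minimum Hnf4a was not called over all 6 libraries (log2 0.67, edgeR adjusted p = 0.799) and was lower without S100a16+/- replicate 3 (log2 -1.55, edgeR adjusted p = 0.0256). Of 18 hepatocyte transcription factor genes, Hnf4a included, 5 had the order of Alb, which 10.8% of all tested genes had, and 4 were tested. Among these, Foxa2, a pioneer factor of liver and gut, was lower in S100a16+/- (log2 change -1.53, SE 0.23, edgeR adjusted p = 0.0285), at an FPKM of 0.678, 0.915 and 0.623 against 1.83, 2.30 and 2.57. Nr1h4, the bile acid receptor gene, was lower as well (log2 change -1.01, SE 0.16, edgeR adjusted p = 0.0313), at 0.766, 0.845 and 0.830 against 1.46, 1.86 and 1.78. Unlike the secreted-protein genes, both were low in S100a16+/- replicate 3 as well. Each stayed called without S100a16+/- replicate 3 and was not called without S100a16+/- replicate 1 or 2 (edgeR adjusted p up to 0.115 for Foxa2 and 0.120 for Nr1h4), and neither was tested with a WT library left out. Both reached the FPKM minimum only through the WT libraries, where they were high, so their calls are not independent of that filter. Cebpa, which is also expressed in macrophages, had the highest level of the list (20.3 to 28.03) and did not pass the test (log2 change 0.26, edgeR adjusted p = 0.352). Without S100a16+/- replicate 3 it was called higher (log2 0.40, edgeR adjusted p = 0.00742).

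The promoters of these genes were searched for short motifs of liver-enriched factors and for the TATA box. RefSeq (GRCm38.p6) gave windows for 27 of the 35 genes, 30 windows in all, and the 250 bases before each start site were read on both strands. TTGCNNAA, a C/EBP-type motif, occurred in 33.3% of these windows and in 9.56% of all 32851 promoter windows. TGTTTAC (FOXA) occurred in 10% and 3.17%, CAAAGTCCA (HNF4) in 3.33% and 0.384%, and TATAAA in 23.3% and 12.4%. Of the 30 windows, these shares rest on 3 for FOXA, 1 for HNF4 and 7 for TATAAA. The C/EBP palindrome TTGCGCAA, which is contained in TTGCNNAA, was in none of the members' windows. The C/EBP-type motif is shown for Fgb, Alb and Apob, where it began within 100 bases of the start site and lay at least 26 bases from it. Each stretch lies before the gene, reads 5′ to 3′ on the gene's strand, and has the motif or its reverse complement in capitals.
Alb, chr5:90460750-90460809, plus strand: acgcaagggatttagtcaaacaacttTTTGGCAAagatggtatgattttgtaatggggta
Fgb, chr3:83049910-83049969, minus strand: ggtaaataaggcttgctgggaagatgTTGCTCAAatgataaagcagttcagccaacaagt
Apob, chr12:7977561-7977620, plus strand: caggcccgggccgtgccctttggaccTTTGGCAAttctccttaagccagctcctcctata
The motif began 94 bases before the start site in Alb, 80 in Fgb and 90 in Apob. A match describes the letters only, and no binding was measured here.

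The make-up of the hepatocyte transcripts also differed between libraries. Relative to Alb in the same library, 22 of the other 34 genes were higher in S100a16+/- replicate 3 than in every WT library, 7 were lower and 5 lay within the WT range. Cyp3a11 was 13.6% of Alb in S100a16+/- replicate 3 and 1.64%, 1.09% and 1.69% in WT, a 9.24-fold higher ratio. Apoa1 was 23.7% of Alb there against 9.98%, 10.3% and 9.79% in WT, and Fgg was 8.71% against 1.91%, 1.76% and 2.91%. The alpha-1-antitrypsin genes went the other way, with Serpina1a at 9.33% against 13.01%, 12.2% and 10.9%. Hnf4a, at 1.46%, lay within the WT values of 1.74%, 1.54% and 1.41%. In S100a16+/- replicates 1 and 2, where Alb itself was low, Apob was 23.7% and 16.1% of Alb, against 4.20% to 5.56% in WT. Set against the sum of the other members in place of Alb, 27 of 35 genes were higher in S100a16+/- replicate 3 and 3 lower. That sum includes Trf, which hardly moved, at an FPKM of 149 there and 162, 169 and 160 in WT. Genes that rose thus gained share of it, Alb included (26.1% against 20.9%, 19.3% and 16.1% in WT). The count of 27 therefore cannot show a change of make-up among the genes that rose.

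**Figure D3:**
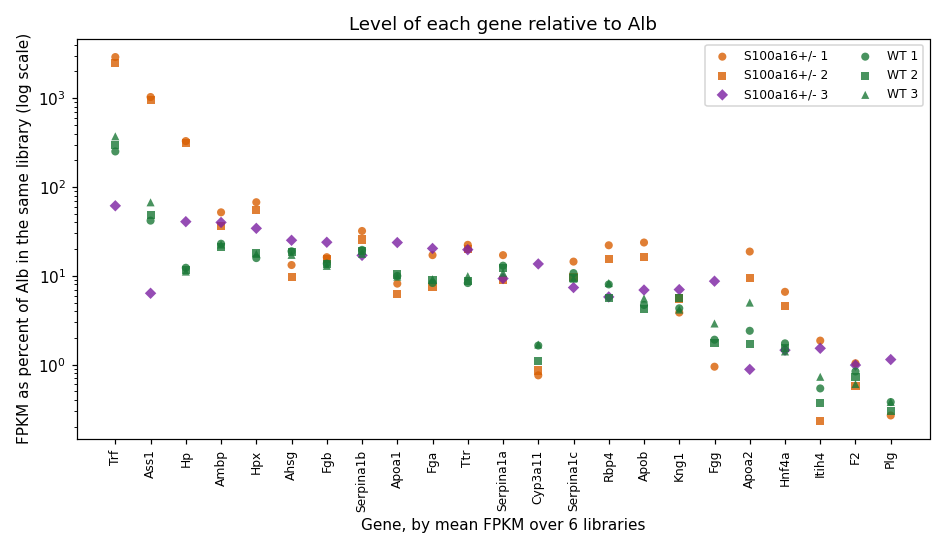
FPKM of 23 genes as a percent of Alb in the same library (log axis), 1 point per library, for the 18 tested genes other than Alb and for Cyp3a11, Hnf4a, Itih4, F2 and Plg, chosen after their values were seen; values of 0 are not drawn. Trf, Ass1 and Hp have their highest ratios in S100a16+/- replicates 1 and 2, and Cyp3a11 and Fgg in S100a16+/- replicate 3.

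In a list of 101 further hepatocyte genes, 34 had the order of Alb, and the other 67 did not, of which 10 were at 0 in every library. The highest level was in S100a16+/- replicate 3 for 78 of the 101, most of which were under the FPKM minimum, so the share over all tested genes is not set beside these counts. Their summed FPKM was 38.5, 36.7 and 385 in S100a16+/- and 93.3, 82.5 and 68.6 in WT. Gc, the vitamin D carrier, was the most abundant, at an FPKM of 4.91, 4.01 and 102 against 24.4, 20.3 and 14.4, followed by the iron hormone gene Hamp at 1.06, 1.77 and 67.9 against 5.12, 5.57 and 3.73. Of 14 tested over all 6 libraries none was called, where 4.46% of all tested genes were. Without S100a16+/- replicate 3, 8 of 12 were lower and 1, the urea-cycle gene Asl, was higher. In that fit 16.5% of all tested genes were lower and 15.8% higher. Some of the 12 reached the FPKM minimum only through the WT libraries, where they were high. Among 16 pericentral genes, Glul, the glutamine synthetase gene, was lower in S100a16+/- (log2 change -0.96, SE 0.10, edgeR adjusted p = 0.0122), at 81.6, 86.0 and 100.1 against 190.2, 179 and 170. The FPKM of Glul was above that of Alb in every library but S100a16+/- replicate 3, and which cells made it was not tested. Slc13a3, a dicarboxylate transporter gene, was lower too (log2 change -0.81, edgeR adjusted p = 0.0183). Both were low in all 3 S100a16+/- libraries, unlike Alb. Leaving out any library other than S100a16+/- replicate 3 ended both calls (edgeR adjusted p up to 0.0943 for Glul and 0.108 for Slc13a3). Of 16 periportal genes, Ass1 among them, none of the 6 tested was called over all 6 libraries, where 4.46% of all tested genes were.

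Sex-biased liver genes were examined because S100a16+/- replicate 3 alone expressed Xist. Among 18 female-biased genes none reached the minimum for testing. Of these, 8 were highest in S100a16+/- replicate 3 and 10 were at 0 in it, 8 of them in every library. Sult2a2 and Sult2a1, sulfotransferase genes, had an FPKM of 3.23 and 1.44 in S100a16+/- replicate 3, and elsewhere only Sult2a2 in WT replicate 1 had any count (0.0669). Of 16 male-biased genes, 10 were highest in S100a16+/- replicate 3. The median of the 11 with any WT level stood at 145% of its WT mean there. Mup20, the urinary pheromone protein gene, had 0.0451, 0.201 and 2.44 against 1.71, 2.43 and 0.904. Mup3 had an FPKM of 0.211, 0.0453 and 1.18 against 0.647, 0.551 and 0.304, from as few as 4 counts. Its ratio to Alb was 0.488% in S100a16+/- replicate 3 and at least 0.708% in each other library. Of 8 immature hepatocyte genes, 3 were highest in S100a16+/- replicate 3. The median of the 7 with any WT level stood at 17.6% of its WT mean there. Afp, the fetal counterpart of albumin and 1 of the 3, had 1.57, 1.39 and 11.4 against 8.08, 7.66 and 4.93.

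Genes of the other liver cells did not all follow the hepatocyte transcripts. Endothelial markers came closest, with 11 of 25 in the order of Alb, 5 in the opposite order and a summed FPKM of 1250, 1187 and 2526 in S100a16+/- against 2158 to 2327 in WT. Of all tested genes, 10.8% had the order of Alb and 6.77% the opposite order. The junction gene Cdh5 had 290.3, 283 and 930.1 against 698, 628 and 657. Stellate markers were lowest in the library where hepatocyte transcripts were highest, with a sum over 22 genes of 1300, 1265 and 219 in S100a16+/- against 1078 to 1201 in WT, and 8 of them had the opposite order. Mesothelial markers were also low there, at a sum of 71.1 against 113 to 147 in the other libraries. The 15 cholangiocyte markers summed to 234, 223 and 86.9 in S100a16+/- and 42.5 to 49.1 in WT, most of it from Spp1, the osteopontin gene that macrophages also express, which rose (log2 change 2.41, edgeR adjusted p = 0.0412, and up to 0.194 with a library other than S100a16+/- replicate 3 left out). The defining cholangiocyte gene Krt19 ranged from 2.75 to 3.18. The part of these cells in the hepatocyte differences was not tested, and in S100a16+/- replicate 3, which has the genotype of replicates 1 and 2, sex and the make-up of the culture cannot be told apart.

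**Figure D4:**
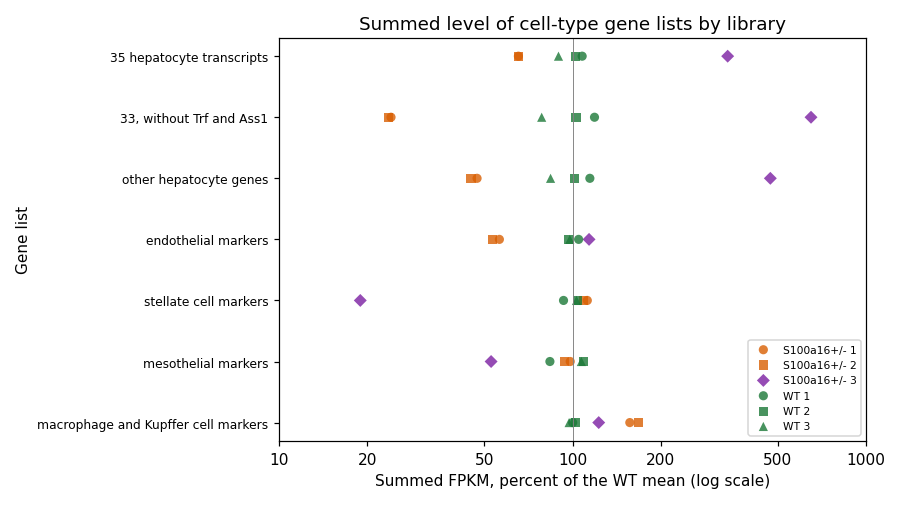
Summed FPKM of 7 gene lists in each library, as a percent of the WT mean of the list (log axis), 1 point per library. S100a16+/- replicate 3 stands at 338% for the 35 hepatocyte transcripts, 472% for the other hepatocyte genes and 18.9% for the stellate cell markers, while S100a16+/- replicates 1 and 2 stand at 65.4% and 65.3%, 47.3% and 45.1%, and 112% and 109%.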

How the data were processed

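The authors deposited 1 table with a count and an FPKM value per gene and library, per the file headers. Per the submitters' processing notes the tools were HISAT2 2.0.4, StringTie 1.3.4d, cutadapt 1.9, edgeR, DESeq2 and UMI-tools, with no order stated. The sources used here name no genome build; the coordinates of 31 of the 35 genes equal those of GENCODE M21 (GRCm38). The deposited counts are whole numbers, but the value 4 occurs 6632 times and 3 and 5 only 2371 and 1289 times, so 1 count need not be 1 molecule. A count of 0 carries an FPKM of 0.0001 and was taken as 0. Use of strand in counting is not given.

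Genes at or above an FPKM of 1 in 3 or more libraries were fitted with edgeR 4.0.16 (TMM, quasi-likelihood, R 4.3.3), genotype as the only term, Benjamini-Hochberg over all 12766 genes, called under 0.05; the SE is the log2 change over the square root of F. The step was tested on simulated data. Alternatives were limma 3.58.1 on log2(FPKM + 1) and log2(FPKM + 0.1), DESeq2 1.42.0, other scalings and filters, the replicate number as a block and each library left out. Levels of different genes are compared by FPKM only. The 35 genes, the gene lists and the tests were chosen with earlier results of these data known. All 35 are accounted for. Described in full were Alb, the 2 most abundant genes of each role, genes called in either fit, genes out of the order of Alb, genes under 60 counts in all and, of other lists, the 2 most abundant and up to 3 called genes; not every gene the rule allows is named. Further genes (Lcn2, Sult2a1, Sult2a2, Afp, Asl, Gfap, Lrat, Mup20, Krt19, Xist, Slc13a3) were named after their values were seen. The motif of 1 further factor is not reported here, and the promoter stretches shown were chosen after the motif matches were seen.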

Additional observations from a re-analysis of the deposited data

How the results depend on the processing

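Under other edgeR scalings and filters (RLE, library totals, filterByExpr, no filter) the 19 tested genes kept their direction and stayed uncalled. DESeq2 called 1 higher and gave 23 of the 35 no adjusted p. Leaving out 1 library gave 0 to 2 genes called higher and 0 to 16 lower, and leaving out S100a16+/- replicate 3 with no filter, chosen after seeing the data, 2 and 22. Over all genes, 162 were higher and 81 lower with no filter, 1012 and 613 in DESeq2, 214 higher in limma on log2(FPKM + 0.1), 772 and 466 at adjusted p under 0.1, 20 to 1990 and 5 to 2075 with 1 library left out, and 1807 and 2041 with no filter and no S100a16+/- replicate 3; the causes were not tested. The summed level ratio ran from 0.654 to 2.02 with 1 library left out, below 1 only without S100a16+/- replicate 3. With the sum of the other members as denominator, 3 genes had a lower ratio in S100a16+/- replicate 3, against 7 relative to Alb.

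Log2 changes of the opposite sign were, in limma on log2(FPKM + 1), Alb -1.40, Rbp4 -0.35, Ambp -0.37, Ahsg -1.02, Apoa1 -0.43, Fga -0.19, Fgb -0.52, Kng1 -0.23, Serpina1a -0.91, Serpina1b -0.81, Serpina1c -0.79; in limma on log2(FPKM + 0.1), Alb -1.53, Ttr -0.29, Rbp4 -0.68, Ambp -0.59, Ahsg -1.71, Apoa1 -1.25, Fga -0.76, Fgb -1.01, Fgg -0.90, Kng1 -1.06, Serpina1a -1.51, Serpina1b -1.13, Serpina1c -1.38. With the replicate number as a replicate block they were Alb -2.04, Ttr -0.70, Rbp4 -0.82, Hpx -0.28, Ambp -1.05, Ahsg -2.56, Apoa1 -2.18, Apob -0.16, Fga -1.47, Fgb -1.73, Fgg -2.68, Kng1 -1.91, Serpina1a -1.9998, Serpina1b -1.51, Serpina1c -1.79, and 0 genes were called higher and 0 lower over all genes. Deviations of same-numbered libraries from their group means had correlations of -0.14, 0.04 and -0.05. The S100a16+/- mean includes replicate 3, so these values cannot show whether same-numbered libraries were prepared together. With 1 library left out the log2 changes ran, for Alb -3.35 to 1.20, Ttr -2.10 to 2.34, Rbp4 -1.97 to 0.94, Hpx -1.52 to 2.22, Ambp -2.38 to 2.04, Ahsg -4.03 to 1.63, Apoa1 -3.81 to 2.41, Apob -1.30 to 1.80, Fga -2.89 to 2.41, Fgb -3.11 to 2.01, Fgg -5.48 to 3.20, Kng1 -3.31 to 1.76, Serpina1a -3.27 to 0.83, Serpina1b -2.75 to 1.07, Serpina1c -3.07 to 0.80. The cause was not tested. Genes with few counts, such as Tat and Cyp2e1, are limited by depth.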
